A study of Mus musculus with 8 samples.

Results

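The classical cadherins and their near relatives were examined in ovarian tumours of mice with and without Nedd9: the 8 genes Cdh1, Cdh2, Cdh3, Cdh4, Cdh6, Cdh11, Cdh13 and Cdh16, taken by gene name from the arrays. They are 8 of 25535 genes tested and are covered by 12 of 39429 probes, all of which passed the filter on dim probes. The tumours arose spontaneously in female C57BL/6J mice of the TgMISIIR-TAg strain, in which the promoter of the Muellerian inhibiting substance type II receptor gene (Amhr2) drives the SV40 T antigen, so that both groups carry the transgene. The mice were Nedd9-WT (4 mice) or Nedd9-null (4 mice), and none received a drug. The labels give neither the ages nor the exons that the null allele lacks. One label places the tumour burden below 2000 mm3, while another has mice killed after that volume was reached. RNA of each tumour (500 ng) was labelled with Cy3 and hybridised to 1 Agilent array. A level is the log2 processed signal relative to the 75th percentile of its array; group values are means ± SD over the 4 mice of a genotype. A difference is Nedd9-null minus Nedd9-WT in log2 units, and its standard error (SE) comes from limma; a gene passed at a Benjamini-Hochberg adjusted p of 0.05 over all genes.

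Cadherins are cell surface proteins that join neighbouring cells by binding, in the presence of calcium, to cadherins of the same kind. The tail of the classical members binds p120-catenin (Ctnnd1) and beta-catenin (Ctnnb1), and beta-catenin binds alpha-catenin (Ctnna1), which contacts actin. In many carcinomas E-cadherin (Cdh1) gives way to N-cadherin (Cdh2) as epithelial cells take on mesenchymal traits, an exchange called the cadherin switch. In the normal ovary N-cadherin is made by granulosa cells and by the surface epithelium, whereas E-cadherin marks the oviduct epithelium. Strictly, T-cadherin (Cdh13), which is held to the membrane by a lipid anchor and has no catenin-binding tail, and Ksp-cadherin (Cdh16), which has a short tail, are not classical cadherins.

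The probes of 4 members are shown. Those of Cdh6, Cdh13 and Cdh16 are the sole readout of their genes, and that of Cdh4 is the farthest upstream of its 3 probes and holds a motif of the family. The stretch in capitals matches the codons of the calcium-binding linker between cadherin repeats. On either strand this codon pattern occurs in 13 of all 39429 probes (0.033%) and in 2 of the 12 cadherin probes, both of Cdh4, of which 1 matches on the printed strand.
Cdh4: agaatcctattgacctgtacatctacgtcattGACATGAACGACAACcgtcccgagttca
Cdh6: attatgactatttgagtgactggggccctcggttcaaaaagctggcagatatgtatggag
Cdh13: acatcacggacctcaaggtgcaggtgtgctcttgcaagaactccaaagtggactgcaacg
Cdh16: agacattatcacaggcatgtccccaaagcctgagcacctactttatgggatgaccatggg
These 60-base probes lie at chr2:179581965-179582024 (plus strand), chr15:12963981-12964040 (minus strand), chr8:121837969-121838028 (plus strand) and chr8:107138101-107138160 (minus strand) in mm9. The Cdh1 probe is at chr8:109193812-109193871 and the Cdh3 probe at chr8:109079933-109079992, both on the plus strand. No sequence is shown for Cdh2, which has 2 neighbouring probes. Exon and UTR positions of the probes were not assigned here.

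The level of Nedd9 itself was -3.23 ± 0.86 without the gene and 1.28 ± 0.42 with it, and no values overlapped (limma adjusted p = 0.0281). Between 73.0% and 84.6% of probes were well above background per array, and 17 of the 25535 genes passed. Nedd9-null replicate 1 stood apart from its group: it correlated at 0.938 to 0.973 with the Nedd9-WT arrays and at 0.886 to 0.920 with the other Nedd9-null arrays, and without it 4773 genes passed. The genotype difference of each cadherin is therefore also given without that tumour. It was picked by its likeness to the Nedd9-WT arrays in these same data, a choice that favours larger differences without it. The p values and counts without it are thus a description. The slide cannot be told apart from the genotype, because all arrays of a genotype shared 1 slide. The RNA is from bulk tissue, in which fewer cells of a type and less RNA per cell cannot be told apart.

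The first question was which cadherins differed between the genotypes. None of the 8 genes passed in the fit of all 8 arrays, where 0.0666% of all genes did (0.0587% higher and 0.00783% lower in Nedd9-null tumours). An unadjusted limma p under 0.05 was found for 4 of the 8 (Cdh4, Cdh2, Cdh3 and Cdh11), against 23.9% of all genes. For 2 members no Nedd9-null value lay among the Nedd9-WT values, against 12.7% of all genes. Cdh4, the gene of R-cadherin, had its Nedd9-null values on top (7.16% of all genes did), and Cdh2 had them at the bottom (5.58% of all genes did). When Nedd9-null replicate 1 was left out, 3 of the 8 passed, against 18.7% of all genes. Of these, Cdh4 rose (10.3% of all genes did), and Cdh2 and Cdh3 fell (8.36% of all genes did). With any other single array left out, 0 of the 8 passed. The median difference of the 8 members was 0.84, beside 0.03 over all genes tested, and 6 of the 8 differences were positive.

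**Figure D1:**
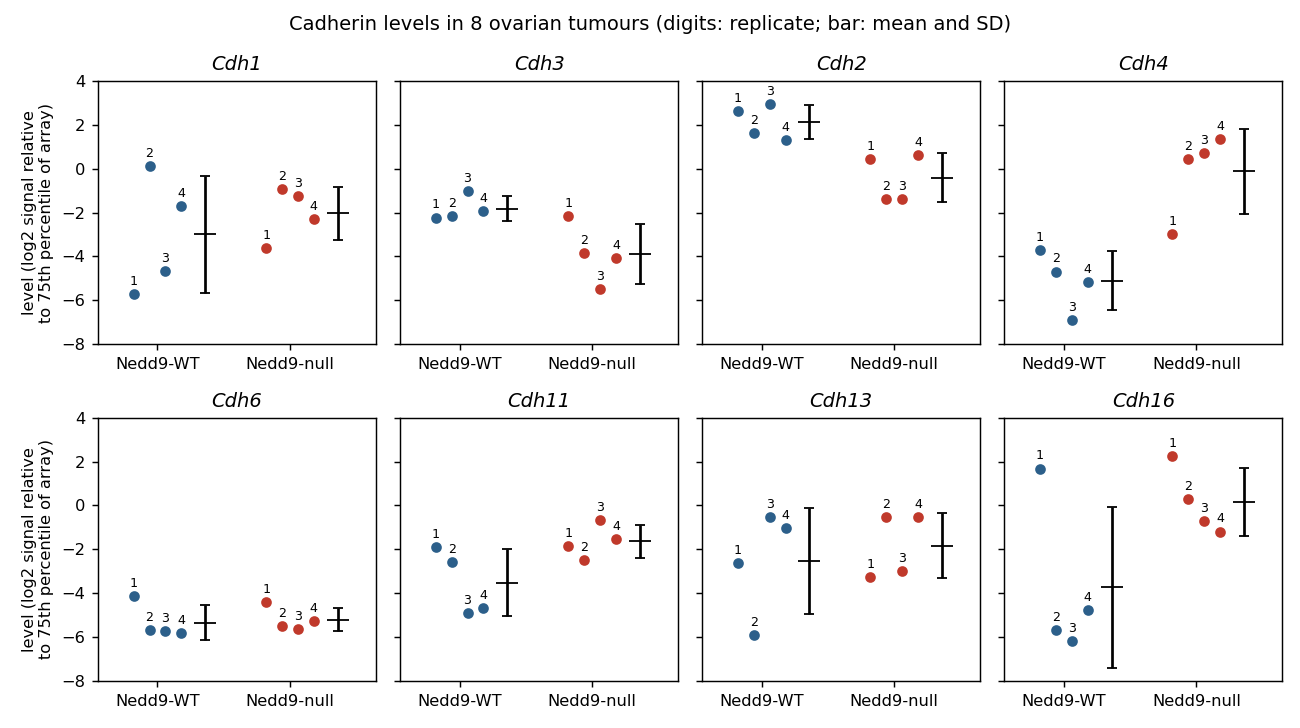
Level of each cadherin (y axis, log2 signal relative to the 75th percentile of the array) in the 4 Nedd9-WT (blue) and 4 Nedd9-null (red) tumours, with replicate numbers and the mean and SD beside each group. The groups do not overlap for Cdh2 and Cdh4, whereas Cdh1, Cdh13 and Cdh16 spread widely within Nedd9-WT tumours.

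Cdh1 encodes E-cadherin, the adhesion molecule of epithelial junctions. Its levels were -5.70, 0.11, -4.68 and -1.71 in Nedd9-WT replicates 1 to 4 and -3.61, -0.94, -1.23 and -2.30 in Nedd9-null replicates 1 to 4. Both the lowest and the highest of the 8 values were thus Nedd9-WT tumours, and the Nedd9-null values lay between them. The difference was 0.98 (SE 1.29, 95% interval -2.01 to 3.96, limma adjusted p = 0.688), and 1.5 (limma adjusted p = 0.508) without Nedd9-null replicate 1. The interval holds both a decrease and a large increase, so that no direction is given.

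The probe of Cdh1 was printed in 10 copies per array, which gave a direct measure of the error between spots of an array. The error between arrays was not measured, since each tumour had 1 array. The SD of the log2 signal over the 8 to 10 usable copies was 0.03 to 0.15 per array. By comparison the SD between tumours, which includes any error between arrays, was 2.68 with Nedd9 and 1.21 without it. The Nedd9-WT tumours spanned 5.82 log2 units (56.3-fold), a span that 0.564% of all genes reached or passed. The Nedd9-null tumours spanned 2.66 (6.33-fold), a span that 14.2% of all genes reached or passed.

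The tumour with the most Cdh1 was not the one with the most epithelial marker signal. The summed signal of the 8 epithelial markers, all of them measured, was 5.84 in Nedd9-null replicate 1 and 105.6, 108 and 54.7 in replicates 2 to 4, in multiples of the 75th percentile. In Nedd9-WT replicates 1 to 4 it was 11.4, 18.8, 55.7 and 16.4. Nedd9-WT replicate 2, which had the most Cdh1, thus had a sum within the Nedd9-WT range. That tumour had the highest levels among the 4 Nedd9-WT tumours of Epcam (-3.07), Krt19 (1.38) and Cldn3 (-0.29), an adhesion molecule, a keratin and a claudin of epithelia. It had the lowest levels among them of the claudins Cldn4 (-6.24) and Cldn7 (-3.89). For the keratins Krt7, Krt8 and Krt18 it was neither the highest nor the lowest of the 4. None of the 8 epithelial markers passed (5 rose when Nedd9-null replicate 1 was left out, against 10.3% of all genes), and no epithelial marker was at background on every array. The part of epithelial content in the Cdh1 levels was not tested.

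Cdh3 encodes P-cadherin, found in basal layers of epithelia and in placenta. It was -2.22, -2.17, -1.0 and -1.92 in Nedd9-WT replicates 1 to 4 and -2.15, -3.83, -5.49 and -4.09 in Nedd9-null replicates 1 to 4. Nedd9-null replicates 2 to 4 lay below all Nedd9-WT tumours, and replicate 1 lay within their range. The difference was -2.06 (SE 0.66, limma adjusted p = 0.127). Leaving that replicate out gave -2.64 (SE 0.48, 6.25-fold lower, limma adjusted p = 0.0100). Cdh3 and Cdh1 are neighbours on chromosome 8, but their values differed in order: Nedd9-null replicates 2 and 3 had more Cdh1 than 3 of the 4 Nedd9-WT tumours and less Cdh3 than all of them.

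Cdh2 encodes N-cadherin, the cadherin that replaces E-cadherin in the switch. The brighter of its probes gave 2.62, 1.61, 2.96 and 1.33 in Nedd9-WT replicates 1 to 4 and 0.46, -1.37, -1.36 and 0.63 in Nedd9-null replicates 1 to 4. Every Nedd9-null tumour, replicate 1 included, was below every Nedd9-WT tumour. The gap between the nearest tumours (1.33 in Nedd9-WT replicate 4, 0.63 in Nedd9-null replicate 4) was smaller than the spread within either genotype. The difference was -2.54 (SE 0.61, 5.81-fold lower, limma adjusted p = 0.0923), and it passed without Nedd9-null replicate 1 (-2.83, SE 0.62, limma adjusted p = 0.0217). The other probe of Cdh2 had the same order of genotypes without overlap and a difference of -2.59 (SE 0.63, limma adjusted p over all probes = 0.0894).

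Markers of granulosa, Sertoli and steroidogenic cells, which include N-cadherin-bearing cells of the ovary, differed as a sum between the same tumours. Their summed signal over 9 of 9 measured markers was 160, 203, 173 and 114 in Nedd9-WT replicates 1 to 4 and 136, 19.8, 18.2 and 20.2 in Nedd9-null replicates 1 to 4. Nedd9-null replicate 1 lay within the Nedd9-WT range of this sum but below all Nedd9-WT tumours in Cdh2. None of these 9 markers was at background on every array. Of their differences 8 were negative and 1 positive, and none passed. Among the negative ones were Amhr2 (-3.95, SE 1.19) and Inha (-5.39, SE 1.60). The positive one was that of Foxl2, a granulosa marker, at 0.25 (SE 0.18, limma adjusted p = 0.419). Its mean was 3.66 with Nedd9 and 3.91 without it, so that the fall of the sum was not shared by every granulosa marker. When Nedd9-null replicate 1 was left out, 6 of the 9 markers fell, against 8.36% of all genes. Of these, Cyp11a1, Amh and Fshr entered the fit only through the Nedd9-WT arrays, so that this count supports nothing about these cells. The other source of N-cadherin named above, the surface epithelium, did not have this order. The summed signal of 6 of 6 measured mesothelium and ovarian surface markers was 49.0 to 65.3 in Nedd9-null and 34.6 to 49.4 in Nedd9-WT tumours. Of their differences 4 were positive and 2 negative, with a median of 0.22, and none passed. The part of either group of cells in the Cdh2 difference was not tested.

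The switch concerns Cdh1 and Cdh2 together, and these were set side by side. Between the genotypes Cdh2 values did not overlap and Cdh1 values did. Within each genotype, the 2 tumours with less Cdh1 had more Cdh2 than the 2 tumours with more Cdh1. In Nedd9-WT mice these were replicates 1 and 3 (Cdh2 of 2.62 and 2.96) against replicates 2 and 4 (1.61 and 1.33). In Nedd9-null mice they were replicates 1 and 4 (0.46 and 0.63) against replicates 2 and 3 (-1.37 and -1.36). This split was made after the values had been seen, and inside the pairs the order was not kept. Of Nedd9-WT replicates 1 and 3, and of replicates 2 and 4, the tumour with less Cdh1 also had less Cdh2. So it was for Nedd9-null replicates 1 and 4, while replicates 2 and 3 were nearly equal in Cdh2. No correlation of Cdh1 with Cdh2 is given, since Cdh2 splits the tumours by genotype and each genotype has 4 tumours.

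**Figure D2:**
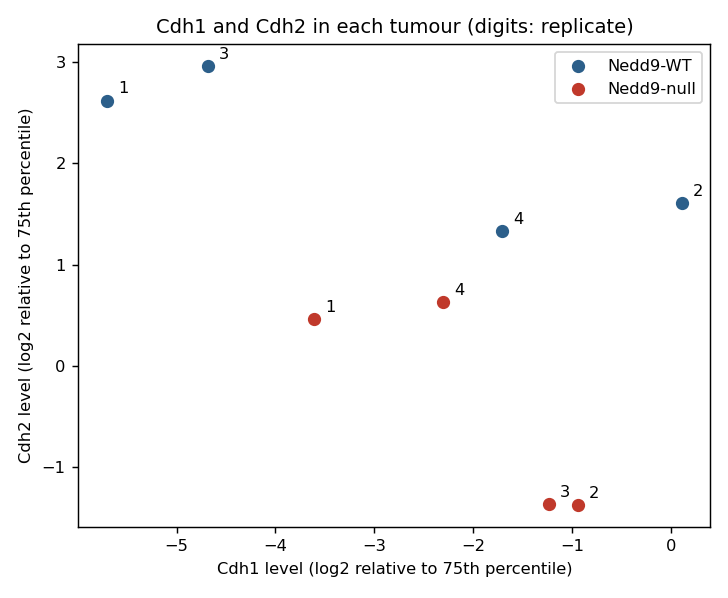
Cdh1 level (x axis) against Cdh2 level (y axis), both as log2 signal relative to the 75th percentile, 1 point per tumour with its replicate number. Nedd9-null tumours (red) lie lower on the Cdh2 axis, from -1.37 to 0.63, than Nedd9-WT tumours (blue), from 1.33 to 2.96, while both genotypes spread along the Cdh1 axis.

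Cdh4, the gene of R-cadherin, which was described in retina and is closest to N-cadherin among the classical members, had the largest difference of the 8. Its brightest probe gave -3.69, -4.69, -6.91 and -5.17 in Nedd9-WT replicates 1 to 4 and -2.97, 0.43, 0.73 and 1.34 in Nedd9-null replicates 1 to 4. All Nedd9-null tumours were above all Nedd9-WT tumours, but replicate 1 lay closer to the Nedd9-WT tumours than to the other Nedd9-null tumours. The difference was 5.0 (SE 1.04, 32.0-fold higher, 95% interval 2.59 to 7.40, limma adjusted p = 0.0816). It was 5.95 (SE 0.71, 61.7-fold, limma adjusted p = 0.00196) when Nedd9-null replicate 1 was left out.

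The brighter pair of Cdh4 probes was higher in every Nedd9-null tumour than in any Nedd9-WT tumour. The probe farthest downstream (chr2:179633818-179633877, mm9) differed by 4.74 (SE 0.93, limma adjusted p over all probes = 0.0703), without overlap. The upstream probe, whose sequence is given above, was dim: 3 of 4 Nedd9-null arrays (all but replicate 1) and 0 of 4 Nedd9-WT arrays had it well above background. It entered the fit only through the Nedd9-null arrays, so that its difference adds no support to the others. Its values overlapped, with Nedd9-null replicate 1 (-8.96) below Nedd9-WT replicates 1 (-7.95) and 3 (-8.58). Its mean was -8.98 with Nedd9 and -6.30 without it, at least 2.32-fold higher (limma adjusted p over all probes = 0.128). For such a bound, each Nedd9-WT array enters with its dimmest probe that was well above background, or with its own value where that was higher.

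Ciliated oviduct cell markers were high in the tumours with the most Cdh4. The summed signal of 6 of 6 measured markers was 4.66, 2.88, 1.56 and 2.10 in Nedd9-WT replicates 1 to 4 and 9.30, 80.0, 130 and 131 in Nedd9-null replicates 1 to 4. The order of the groups, with Nedd9-null replicate 1 between, was that of Cdh4, and Nedd9-WT replicate 3 was lowest in both. The markers of oviduct secretory and Muellerian epithelium, 6 of 6 measured, were high in the same tumours. Their sum was 101, 144 and 104 in Nedd9-null replicates 2 to 4 and 5.93 in replicate 1, against 0.567 to 4.34 in Nedd9-WT tumours. No marker of either list passed or was at background on every array. When Nedd9-null replicate 1 was left out, 6 of 6 ciliated and 4 of 6 secretory markers rose, against 10.3% of all genes. Of the ciliated markers, Ccdc113 entered the fit only through the Nedd9-null arrays, so that its rise supports nothing. The part of both cell types in the Cdh4 difference was not tested.

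**Figure D3:**
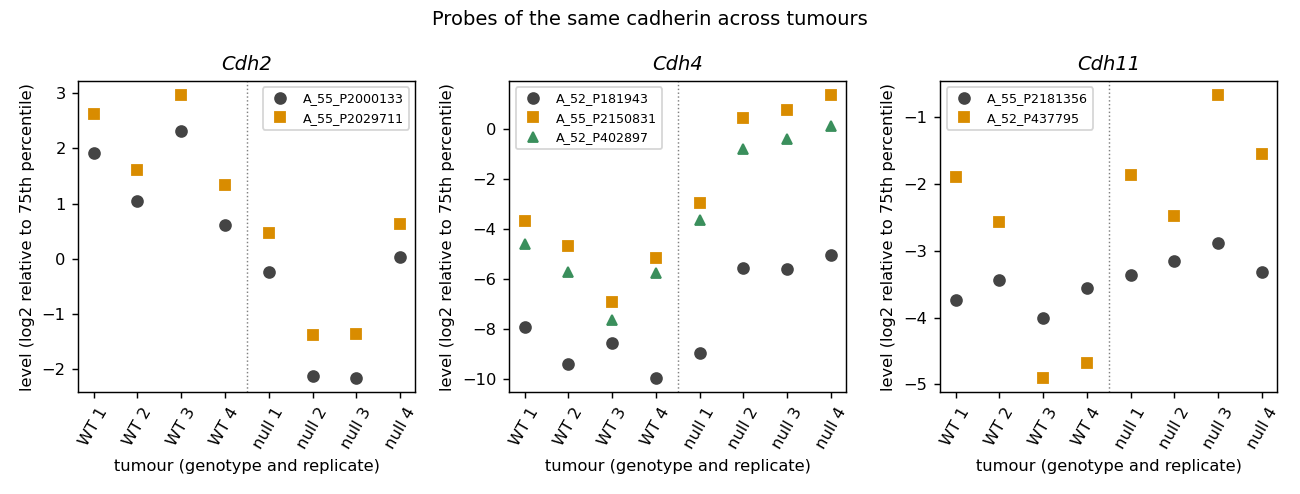
Levels of the separate probes of Cdh2, Cdh4 and Cdh11 (y axis, log2 signal relative to the 75th percentile) in each tumour (x axis, genotype and replicate). The probes of Cdh2 and the brighter pair of Cdh4 run in parallel, while one Cdh11 probe spans 4.24 log2 units and the other stays between -4.01 and -2.88.

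Cdh11 encodes OB-cadherin, a cadherin of mesenchymal cells and osteoblasts. Its brighter probe gave -1.90, -2.57, -4.90 and -4.68 in Nedd9-WT replicates 1 to 4 and -1.87, -2.48, -0.67 and -1.55 in Nedd9-null replicates 1 to 4. Nedd9-WT replicates 3 and 4 were low, and replicates 1 and 2 lay at or near the Nedd9-null values. The difference was 1.87 (SE 0.75, limma adjusted p = 0.182), and 1.95 (limma adjusted p = 0.162) without Nedd9-null replicate 1. The other Cdh11 probe differed by 0.50 (SE 0.19, limma adjusted p over all probes = 0.163), with all Nedd9-null values above the Nedd9-WT values. The coordinates of that probe cover 33 of its 60 bases. Both probes had the same sign and differed in size.

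The summed signal of 7 of 7 measured markers of fibroblasts and perivascular cells was 11.4 to 17.1 in Nedd9-null and 11.7 to 40.2 in Nedd9-WT tumours, with the highest sum in Nedd9-WT replicate 1. In this list Lum, a matrix proteoglycan gene, was lowest in Nedd9-WT replicates 3 and 4 (-3.42 and -3.39), the tumours with the least Cdh11. Col3a1 was also lowest in these tumours (1.38 and 1.30). The pericyte genes Pdgfrb and Rgs5 were lowest in Nedd9-WT replicate 3 (-5.17 and -6.57). In Nedd9-WT replicate 4 they were -0.58 and -0.64, and no tumour had more Rgs5. Col1a1 was lowest in replicate 3 (-0.51) but not in replicate 4 (1.48). Dcn was highest of all tumours in replicate 3 (3.88) and lowest in replicate 4 (1.75). Pdgfra was -0.12 and 0.78 in Nedd9-WT replicates 3 and 4, above its Nedd9-null mean of -1.33. The genes of the list thus did not share 1 order. No marker of this list was at background on every array, and the part of these cells in the Cdh11 levels was not tested.

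Cdh6 encodes K-cadherin, which was described in fetal kidney and is also expressed in carcinomas of kidney and ovary. It was -4.11, -5.67, -5.74 and -5.83 in Nedd9-WT replicates 1 to 4 and -4.42, -5.50, -5.62 and -5.27 in Nedd9-null replicates 1 to 4. Replicate 1 was the highest of its group in both genotypes. The difference was 0.13 (SE 0.45, 95% interval -0.90 to 1.17, limma adjusted p = 0.886). Its sign turned with the median or quantiles as the scale and without Nedd9-null replicate 1 (-0.13), so that no direction is given. The interval reaches a change of over 2-fold in the upward direction.

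Cdh16, the gene of Ksp-cadherin of kidney tubules and of tissues derived from the Muellerian duct, had the widest range of the 8. It was 1.68, -5.67, -6.18 and -4.77 in Nedd9-WT replicates 1 to 4 and 2.27, 0.28, -0.72 and -1.19 in Nedd9-null replicates 1 to 4. All but one Nedd9-WT tumour were low, and Nedd9-WT replicate 1 was above 3 of the 4 Nedd9-null tumours. The difference was 3.89 (SE 1.74, limma adjusted p = 0.221). It was 5.70 (limma adjusted p = 0.0659) without Nedd9-WT replicate 1 and 3.19 (limma adjusted p = 0.285) without Nedd9-null replicate 1. With both of these tumours left out, an alternative chosen after seeing the data, Cdh16 rose by 5.0 (limma adjusted p = 0.00211). The span of the 8 tumours was 8.45 log2 units, which 0.885% of all genes reached or passed.

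Cdh16 and Cdh6 shared their top tumours, Nedd9-null replicate 1 and Nedd9-WT replicate 1, and these were also the tumours with the most adipocyte marker signal. The sum over 5 of 5 measured adipocyte markers was 72.8 in Nedd9-null replicate 1 and 46.5 in Nedd9-WT replicate 1, and 0.10 to 1.63 in the other 6 tumours. No adipocyte marker was at background on every array. The part of adipose tissue in the Cdh16 and Cdh6 levels was not tested. Of 3 kidney tubule genes chosen after the data had been seen, Slc12a1 was well above background on 0 of 8 arrays, Slc12a3 on 1 and Umod on 2. The sum of the oviduct secretory and Muellerian markers was 5.93 and 4.34 in the tumours with the most Cdh16 (Nedd9-null replicate 1 and Nedd9-WT replicate 1). In the other Nedd9-null tumours it was 101 to 144. The part of kidney tubule or Muellerian cells in the Cdh16 levels was not tested.

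Cdh13, the gene of T-cadherin, a receptor of adiponectin on endothelium and muscle, was -2.65, -5.91, -0.51 and -1.05 in Nedd9-WT replicates 1 to 4. In Nedd9-null replicates 1 to 4 it was -3.27, -0.54, -2.97 and -0.53. Both genotypes held low and high tumours. The difference was 0.70 (SE 1.25, 95% interval -2.20 to 3.60, limma adjusted p = 0.775), and 1.18 (limma adjusted p = 0.607) without Nedd9-null replicate 1. It was -0.43 without Nedd9-WT replicate 2, the lowest tumour. The Nedd9-WT span of 5.40 log2 units (42.1-fold) was reached or passed by 0.744% of all genes. The summed endothelial markers (8 of 8 measured, none at background on every array) were 4.02 to 5.43 in Nedd9-null and 5.57 to 11.1 in Nedd9-WT tumours. The tumour with the least Cdh13, Nedd9-WT replicate 2, had a sum of 6.09, within the Nedd9-WT range. The part of endothelium in the Cdh13 levels was not tested.

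The other cadherins were examined to place these 8 in their family. Of 15 further genes on the array, 10 were measured, and Cdh7, Cdh10, Cdh17, Cdh19 and Cdh20 were too dim to be tested. None of the 10 passed in the fit of all arrays, and the median difference was 0.03. With Nedd9-null replicate 1 left out, 1 gene passed higher (Cdh22) and 1 lower (Cdh23), against 10.3% and 8.36% of all genes. Each of these entered the fit only through the genotype in which it is high, so that the counts support nothing about the family.

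Cdh22, the gene of a type II cadherin first found in pituitary and brain, was well above background on all 4 Nedd9-null arrays and on no Nedd9-WT array. Its mean was -8.52 ± 0.77 with Nedd9 and -3.08 ± 2.39 without it, at least 21.5-fold higher (limma adjusted p = 0.0798). Its values in Nedd9-null replicates 1 to 4 were -6.63, -2.09, -2.24 and -1.38, so that replicate 1 was again the lowest of its group, as it was for Cdh4. Cdh23, a cadherin of hair cell tip links, was well above background on all 4 Nedd9-WT arrays, at -2.08, -4.35, -1.67 and -3.41 in replicates 1 to 4. Of the Nedd9-null arrays only that of replicate 1 measured it (-2.57), within the Nedd9-WT range, and on the other 3 it was not well above background. The lesser type II gene Cdh24 differed by 1.09 (SE 0.36), with all Nedd9-null values above the Nedd9-WT values. VE-cadherin (Cdh5) of endothelium differed by -0.76 (SE 0.29) and Cdh8 by 0.29 (SE 0.16), and these 3 had limma adjusted p of 0.132, 0.173 and 0.318.

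**Figure D4:**
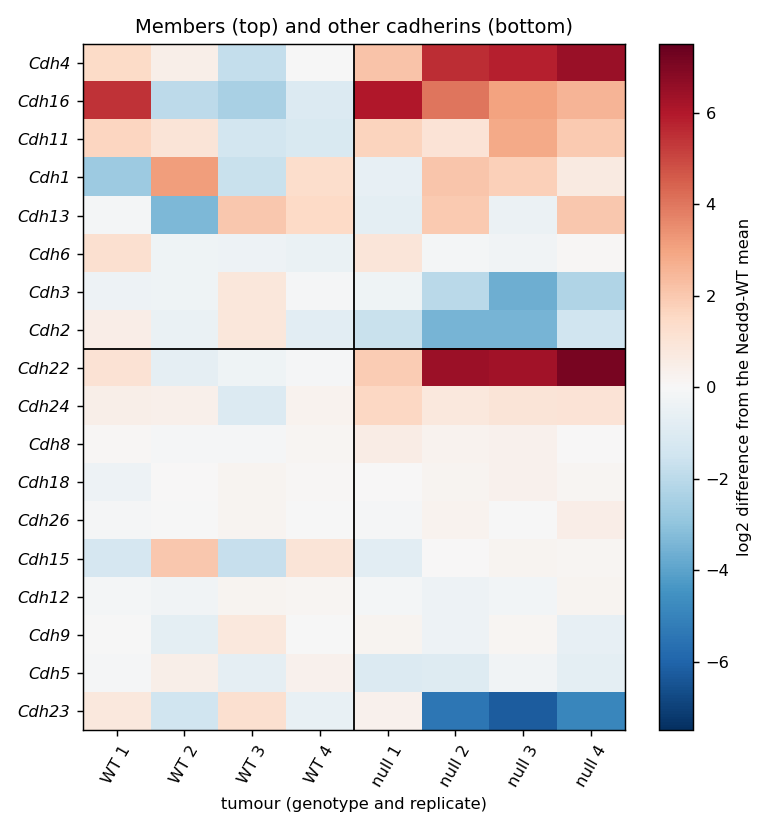
Log2 difference from the Nedd9-WT mean (colour) of the 8 members (above the line) and the 10 other measured cadherins (below it) in each tumour. Cdh4, Cdh22 and Cdh23 show the strongest colours in Nedd9-null replicates 2 to 4, and Cdh16 in Nedd9-WT replicate 1 and Nedd9-null replicate 1.

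The cytoplasmic partners came next: all 23 genes of the catenin and adherens junction list were measured. None passed in the fit of all arrays, and the median difference was -0.08. With Nedd9-null replicate 1 left out, 1 rose and 7 fell, against 10.3% and 8.36% of all genes, and the median was -0.07. Beta-catenin (Ctnnb1) differed by 0.17 (SE 0.17) and alpha-E-catenin (Ctnna1) by 0.06 (SE 0.15), with limma adjusted p of 0.577 and 0.858.

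For 2 of the 23 genes, Ctnnd2 and Ctnna2, the values of the genotypes did not overlap, in opposite directions, against 12.7% of all genes in either direction. Delta-catenin (Ctnnd2), known from neurons, was -3.58, -2.25, -3.50 and -2.97 in Nedd9-null replicates 1 to 4 and -4.30, -5.75, -6.22 and -5.78 in Nedd9-WT replicates 1 to 4, without overlap. Its difference was 2.44 (SE 0.47, limma adjusted p = 0.0759, and 0.0131 without Nedd9-null replicate 1). Alpha-N-catenin (Ctnna2), which links N-cadherin to actin in neurons, was 3.87, 3.84, 4.09 and 3.96 in Nedd9-WT replicates 1 to 4. In Nedd9-null replicates 1 to 4 it was 3.79, -1.74, -5.62 and -5.75. Replicate 1 was thus just below the narrow Nedd9-WT range, and the other 3 were far below it. The difference was -6.26 (SE 1.97, limma adjusted p = 0.124), and -8.30 (limma adjusted p = 0.00159) without Nedd9-null replicate 1.

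Of the other partners, Nectin2, an adhesion molecule of the same junction, differed by -2.26 (SE 0.58, limma adjusted p = 0.0963). The actin-binding junction gene Afdn differed by -0.61 (SE 0.20), and p120-catenin (Ctnnd1) by -0.87 (SE 0.31), with limma adjusted p of 0.136 and 0.148. With Nedd9-null replicate 1 left out these 3 fell (limma adjusted p of 0.00143, 0.0286 and 0.00352). So did plakoglobin (Jup) and Plekha7, which tethers microtubules to the junction, at limma adjusted p of 0.0128 and 0.0104. The remaining gene of the 7, alpha-T-catenin (Ctnna3), entered the fit only through the 4 Nedd9-WT arrays, and of the Nedd9-null arrays only that of replicate 1 had it well above background.

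Genes that act on cadherins were examined last. Of 27, 26 were measured (Ovol1 was too dim), and none passed in the fit of all arrays. The median difference was 0.12. With Nedd9-null replicate 1 left out, 7 rose and 3 fell, against 10.3% and 8.36% of all genes, and the median was 0.03. Of the 3 that fell, Ptprm, a phosphatase gene of the junction, entered only through the Nedd9-WT arrays and was well above background on 2 Nedd9-null arrays. Grhl2, an activator of Cdh1 transcription, was -4.55, -5.10, -5.82 and -5.29 in Nedd9-WT replicates 1 to 4 and -3.15, -3.23, -3.47 and -4.09 in Nedd9-null replicates 1 to 4. It did not overlap between the genotypes and differed by 1.70 (SE 0.32, limma adjusted p = 0.0756, and 0.0198 without Nedd9-null replicate 1). The epithelial factor gene Ehf differed by 4.19 (SE 1.18, limma adjusted p = 0.108), and rose by 5.48 (limma adjusted p = 4.09e-04) with that replicate left out. It was -3.37 in Nedd9-null replicate 1, within the Nedd9-WT range, and 1.99, 1.35 and 2.00 in the other 3.

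The repressors of Cdh1 had differences of both signs. Snai1 differed by -0.98 (SE 0.29, limma adjusted p = 0.113) and Zeb2 by -2.67 (SE 0.80, limma adjusted p = 0.115), while Zeb1 differed by 0.13 (SE 0.18, limma adjusted p = 0.711). Twist1, a mesodermal factor that is tied to N-cadherin expression, differed by 4.45 (SE 1.44, limma adjusted p = 0.129). It was 0.29, 0.37 and 0.12 in Nedd9-null replicates 2 to 4, and -6.13 in replicate 1, against -6.19 to -4.77 in Nedd9-WT tumours. With that replicate left out, Twist1 rose (6.05, limma adjusted p = 2.96e-04), as did Snai2 (1.71, limma adjusted p = 0.0272), and Zeb2 fell (-3.52, limma adjusted p = 8.45e-04). In the 3 tumours with the most Twist1, Cdh2 was -1.37, -1.36 and 0.63, below every Nedd9-WT tumour. Nedd9-null replicate 1, with Twist1 within the Nedd9-WT range, was also below them in Cdh2 (0.46). The part of Twist1 in the Cdh2 levels was not tested. The splicing factor gene Esrp2 differed by -1.55 (SE 0.48, limma adjusted p = 0.120), and by -1.88 (limma adjusted p = 0.0247) with Nedd9-null replicate 1 left out.

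**Figure D5:**
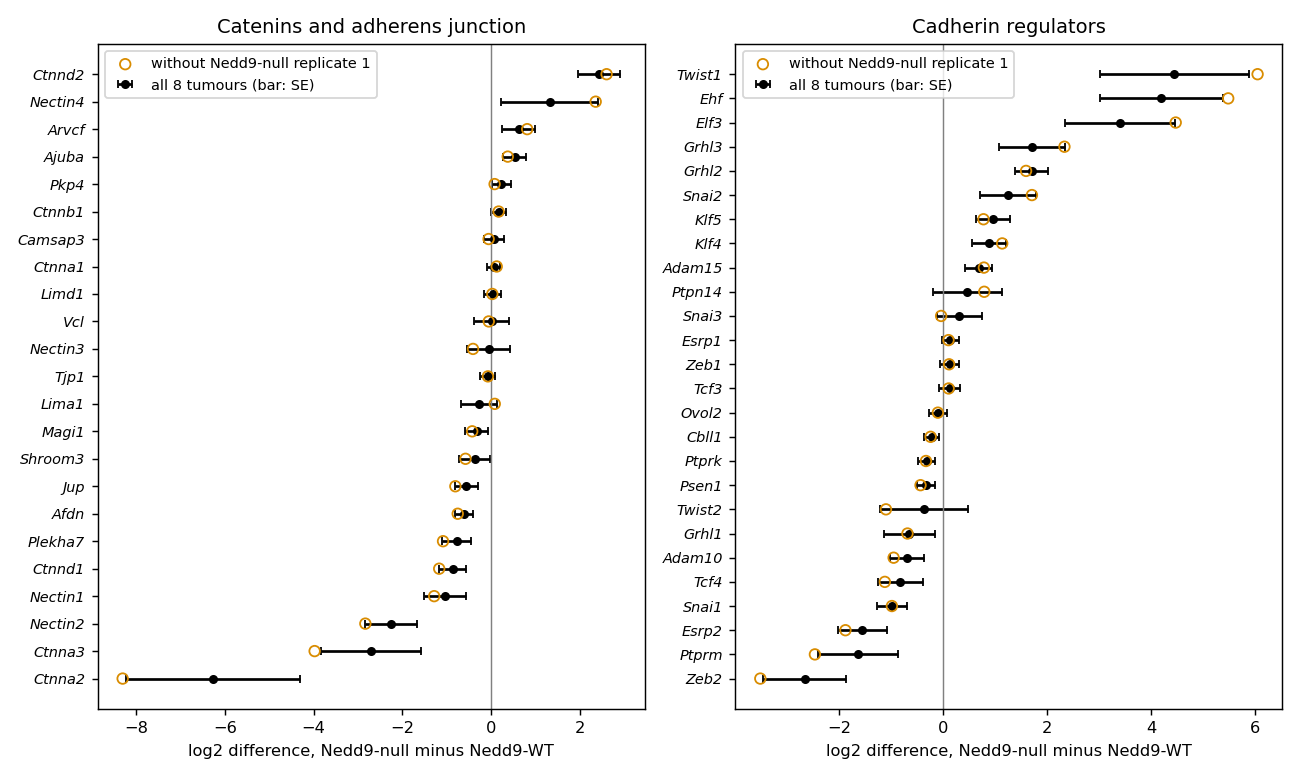
Log2 difference, Nedd9-null minus Nedd9-WT (x axis), of each measured catenin and junction gene (left) and cadherin regulator (right), with the SE of the limma fit as bars and the value without Nedd9-null replicate 1 as open circles. Ctnna2 lies lowest at -6.26 and Twist1 highest at 4.45, and both lie farther from 0 without that tumour.

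The genes with the most similar pattern over the 8 tumours were listed by Pearson r among 15188 named genes above background on all arrays, as a description. Cdh4 was followed most closely by Wdr78, Large2 and Ift81 (r = 0.99 for each). Cdh2 was followed by Poglut2, Eef1aknmt and Purb (0.98, 0.96 and 0.96), and Cdh3 by Zfp513, Bptf and Wnk4 (0.99 for each). For Cdh1 they were Psma3, Dpm2 and Crot (0.98, 0.97 and 0.96), and for Cdh11 Pold1, Plpp7 and Cdc20 (0.98, 0.98 and 0.97). Cdh16 was followed by Fermt2, Mettl6 and Mreg (0.97, 0.96 and 0.96), Cdh13 by Phxr4, E2f5 and Angptl4 (0.96, 0.95 and 0.92), and Cdh6 by Trim35, Cyp2e1 and Adcy5 (0.94, 0.94 and 0.93). The tumours are split by genotype and include Nedd9-null replicate 1, though only Cdh2 and Cdh4 did not overlap between the genotypes. Each gene was picked for its high r among 15188 over 8 tumours, a choice that itself favours high values.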

How the data were processed

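RNA of 8 ovarian tumours was measured on Agilent 1-colour arrays. Spots were read with Agilent Feature Extraction 9.5.3, per the submitters' processing notes. Per the file headers, the deposited processed intensity is background-subtracted and detrended within each array but not normalized between arrays. The deposited value table holds log2 values that follow the median spot signal (r = 0.999 on the least similar array), with a median of 8.24 in every column, and its background step is unknown. That table was used as an alternative. Flags for outliers, saturation and background were used as deposited (other columns of 0 or 1). Controls (1377 of 44397 spots) and outlier spots were left out, spots of a probe were averaged as log2 values, and each array's 75th percentile was subtracted. A probe entered if 3 or 4 arrays of either genotype had it well above background (31783 probes), and a gene was read by its brightest kept probe. The genotype contrast was fitted over 25535 genes with limma 3.58.1 (lmFit, then eBayes; prior df 1.84; tests are 2-sided) under R 4.3.3. Names were updated through a RefSeq table of GRCm38.p6: an accession named 26055 probes, a symbol 3195 and a synonym 930, while 9249 have the name in the files.

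The members and lists were chosen with earlier results of these data known. Named genes are the 8 members, Nedd9, the 5 genes of each partner list with the smallest p and genes that pass. The 3 most similar genes per member are named too. Core genes and switch factors of the lists (Ctnnb1, Ctnna1, Zeb1, Twist1, Snai2, Ptprm, Ctnna3, Jup and Plekha7) were named after their values had been seen. So were all single genes named from the marker lists. No member fell below the background filter, so the permutation test planned for that case was not needed. The fit was tested on simulated data. Alternatives were another background correction, 2 scales, 2 filters, 2 ways to treat probes, the value table, array weights, a trended robust fit, a replicate block and leaving out each array. The number of arrays limits the precision.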

Additional observations from a re-analysis of the deposited data

Results flagged for a closer look

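In 30 groups of 4 values (the members and their further probes, Nedd9 and 2 array measures), 3 single tumours stood far from the others of their group by Dixon's test at 95%; chance flags about 1 in 20 groups. Cdh6 was -4.11 in Nedd9-WT replicate 1, against -5.83 to -5.67 in the other Nedd9-WT tumours. The upstream probe of Cdh4 was -8.96 in Nedd9-null replicate 1, against -5.62 to -5.07 in the other Nedd9-null tumours. In the same tumour, 84.6% of probes were well above background, against 79.5% to 80.1% in the others of that genotype.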

How the results depend on the processing

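Over 160 recalculations of the differences of the 8 cadherins, 141 kept their direction and their side of the threshold, 10 kept the direction and passed (Cdh2, Cdh3, Cdh4 and Cdh16), and 9 turned sign. The 2 filters, the fit with every probe a row, the trended robust fit and the replicate block returned the same differences. They could change only the p values, so that the first count overstates how stable the directions are. Cdh6 turned with normexp (-0.00085), the median scale (-0.057), quantiles (-0.13), the authors' deposited table (-0.092) and array weights (-0.17), and ranged from -0.13 to 0.54 with single arrays left out (without Nedd9-WT replicate 3 it was -8.0e-05 and without replicate 4 -0.029). Cdh13 ranged from -0.43 to 1.37 with single arrays left out. The Nedd9 difference lay between -4.97 and -4.25 and missed the threshold in 7 of 20 recalculations. The median difference over all genes was 0.03, and -0.16 with the median scale. The count of genes that passed, 17, was 4 with the median scale, 4 with quantiles, 7 with genes above background on all arrays, 11 with the trended robust fit, 5984 with array weights and 0 to 4773 with single arrays left out. With array weights the counts of passing genes were 3 members, 2 other cadherins, 10 catenin and junction genes and 14 regulators; with single arrays left out they were 0 to 3, 0 to 2, 0 to 8 and 0 to 10, the highest without Nedd9-null replicate 1. Without both replicates numbered 1 (chosen after seeing the data) 4531 genes passed, with 4 members, 2 other cadherins, 9 catenin and junction genes and 12 regulators. With the replicate number as a block 0 genes passed; deviations of same-numbered tumours correlated at -0.23 to -0.04, and 0 of 4 matched its own number best, so that the samples share only a number. The cause of these changes was not tested.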
